A study of Mus musculus with 8 samples.

Results

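The activin and TGF-beta signalling genes described here were 10 genes chosen by name: the ligand genes Inhba, Inhbb, Tgfb1, Tgfb2 and Tgfb3, the secreted regulators Fst and Fstl1, and the receptor genes Tgfbr1, Acvr1 and Tgfbr2. They were 10 of the 16593 genes with a symbol on the array, and all 14 probes annotated to them were taken, out of 25695 probes with values. In this tissue 11 of the 14 probes were bright enough to pass the filter on dim probes, and each of the 10 genes kept at least 1 probe. The genes were selected with their values in PGISp and control spines already known, so their differences between the groups are given as descriptions, without p-values, and which of them the fit across all genes called is listed below only as part of that description.

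Whole spines of 4 PGISp mice and 4 control mice were profiled, with 1 spine of a separate mouse on each array. All 8 were BALB/c mice that lacked the interleukin-4 gene (IL4 knockout). In the proteoglycan-induced spondylitis (PGISp) model, female mice received 3 injections of human cartilage proteoglycan with the adjuvant dimethyl dioctadecyl ammonium bromide from the age of 3 months, and the spines were taken at week 12. Control mice are labelled as having had no treatment, and according to the paper they were not injected with the proteoglycan extract. Effects of proteoglycan, adjuvant and injection therefore cannot be told apart here. The sex of the control mice is not given separately in the sources used here. Only PGISp mice with severe arthritis of the peripheral joints were used, and arthritis of the spine itself was not scored before RNA was extracted. A whole spine holds bone, marrow, disc, ligament and the attached muscle, so a lower level of a transcript from fewer cells of a type cannot be told apart from less RNA per cell. The 8 arrays shared 1 BeadChip, and the spines are named by their place on it, with the letters A, C, E and G for PGISp mice and B, D, F and H for control mice.

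Ligands of this branch are made as precursors that pair into dimers. Activins are built from the beta subunits that Inhba and Inhbb encode, whereas the TGF-betas are secreted in a latent form and stored in the matrix, of which bone is a rich source. A ligand dimer is held by a type II receptor, which switches on a type I receptor beside it, and the type I receptor then phosphorylates Smad2 and Smad3. Follistatin, the product of Fst, traps activin before it can reach its receptor. In the skeleton the pathway is known for its part in matrix synthesis, in the coupling of bone resorption to formation and in fibrosis.

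The levels below are log2 values as deposited, and each difference is the PGISp mean minus the control mean on that scale. Correlations between arrays of the same group were 0.981 to 0.994. Above background lay 11942 to 14114 probes on PGISp arrays and 13043 to 13835 on control arrays, with background at 6.73 to 6.80. PGISp A had the fewest probes above background (11942) of all arrays, and PGISp G the most (14114). Markers of muscle (Acta1), marrow neutrophils (Mpo), bone (Bglap) and cartilage (Acan) were above background on all 8 arrays, whereas the cartilage markers Matn1, Matn3 and Col11a1 were above it on 0 of 8. Eif2s3y, a Y-chromosome gene, stood at 6.49 to 6.65 on the PGISp arrays, against 8.57 on control B, 8.33 on control F and 6.91 and 6.63 on controls D and H. Xist, the RNA of the inactive X chromosome, stood at 7.40 to 8.37 on the PGISp arrays, against 6.62 and 6.85 on controls B and F and 7.37 and 7.89 on controls D and H. Controls B and F thus carried Y-linked signal and the lowest Xist levels of the 8, unlike the female PGISp mice. Values or calls without these 2 spines are given for the called genes of the set and of the pathway lists, but not for the cell type markers.

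Inhba and Tgfbr1 were the 2 genes whose PGISp and control spines did not overlap, and their promoters are shown here because they carry the main differences of the set. The sequences are RefSeq promoter windows of 300 bases on build GRCm38.p6, written in the direction of transcription, and capitals mark the motif matches found.
Inhba promoter, chr13:16011601-16011900, plus strand: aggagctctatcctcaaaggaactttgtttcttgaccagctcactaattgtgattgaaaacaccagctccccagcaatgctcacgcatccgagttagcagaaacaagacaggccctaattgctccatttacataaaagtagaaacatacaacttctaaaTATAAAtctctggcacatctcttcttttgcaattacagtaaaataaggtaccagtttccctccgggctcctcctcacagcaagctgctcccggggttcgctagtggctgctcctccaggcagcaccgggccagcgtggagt
Tgfbr1 promoter, chr4:47352972-47353271, plus strand: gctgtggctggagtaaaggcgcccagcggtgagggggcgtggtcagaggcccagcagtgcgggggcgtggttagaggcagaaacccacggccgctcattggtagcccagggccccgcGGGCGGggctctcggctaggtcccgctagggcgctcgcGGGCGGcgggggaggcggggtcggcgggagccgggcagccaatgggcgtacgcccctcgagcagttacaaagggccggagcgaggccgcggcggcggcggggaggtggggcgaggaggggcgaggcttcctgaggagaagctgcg
The search covered TATAAA (the TATA box), GTCTAGAC and CAGAC (Smad binding), TGANTCA (AP-1), TGACGTCA (the cAMP response element) and GGGCGG (the GC box), on both strands, and no matches overlapped in these windows. In the Inhba window only TATAAA was found, starting 91 bases before the transcript start, a motif that 13.6% of 32851 promoter windows of this length held. In the Tgfbr1 window only GGGCGG was found, starting 133 and 95 bases before the start, and 35.7% of all windows held it. The Inhba window had 7 CpG dinucleotides, the median of all windows, and the Tgfbr1 window had 34. RefSeq windows were matched for 8 of the 10 genes, Tgfbr1 with a second start that is not printed, and none was matched for Tgfb3 and Fst.

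Inhba, which encodes the beta A subunit of activin A, was higher in PGISp spines. Its level was 7.89, 8.31, 8.09 and 7.78 in PGISp spines A, C, E and G, against 7.39, 7.20, 7.29 and 7.35 in control spines B, D, F and H. The groups did not overlap, and a gap of 0.39 separated the lowest PGISp spine from the highest control spine. The means were 8.02 ± 0.23 in PGISp spines and 7.31 ± 0.08 in control spines (SD, n = 4 each), a log2 difference of 0.71 (SE 0.11, 95% interval 0.47 to 0.95). On the linear scale this is 1.64-fold (1.39 to 1.93). Among the 9608 genes tested, ordered from the highest signed log2 difference down, Inhba was number 76. The log2 difference was 0.74 without controls B and F and 0.79 without PGISp G, the PGISp spine with the lowest level.

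Inhbb, which encodes the beta B subunit of activin B, was a dim transcript with overlapping groups. Its level was 7.04, 7.06, 6.83 and 6.95 in PGISp spines A, C, E and G, against 6.87, 6.87, 6.90 and 6.91 in control spines B, D, F and H. PGISp A, C and G lay above the control spines and PGISp E below them. The log2 difference was 0.08 (SE 0.06, 95% interval -0.06 to 0.22), an interval that ends below the one of Inhba, although the difference between the 2 activin subunit genes was not tested.

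The 3 TGF-beta ligand genes showed no separation of the groups. Tgfb1, which encodes the TGF-beta stored most abundantly in bone matrix, was the gene of the set with the widest ranges, 0.75 in PGISp spines and 0.61 in control spines. Its level was 8.03, 8.48, 8.78 and 8.47 in PGISp spines A, C, E and G, against 8.61, 8.42, 8.26 and 8.0 in control spines B, D, F and H. The log2 difference was 0.11 (SE 0.16, 95% interval -0.25 to 0.48), and 0.23 without controls B and F. PGISp A and control H were the low spines and PGISp E and control B the high ones, so each group held both.

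Tgfb2 was 6.84, 7.05, 7.15 and 6.90 in PGISp spines A, C, E and G, against 6.98, 7.03, 7.04 and 7.02 in control spines B, D, F and H. Its log2 difference of -0.03 (SE 0.07, 95% interval -0.20 to 0.13) was the lowest of the 10 genes and the only one below 0. Control spines stayed within 0.05 of each other, and PGISp spines lay on both sides of them. Tgfb3 was 7.35, 7.69, 7.35 and 7.29 in PGISp spines A, C, E and G, against 7.28, 7.38, 7.54 and 7.38 in control spines B, D, F and H. PGISp C alone stood high, the other PGISp spines lay within the control range, and the log2 difference was 0.02 (SE 0.10, 95% interval -0.19 to 0.24).

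Fst, the activin antagonist, was 6.76, 6.84, 7.01 and 7.13 in PGISp spines A, C, E and G, against 6.93, 6.87, 6.95 and 6.90 in control spines B, D, F and H. It was above background on 7 of 8 arrays, all but PGISp A. The 4 PGISp spines spread over 0.37 and the 4 control spines over 0.08, with PGISp A and C below the controls and PGISp E and G above them. The log2 difference was 0.02 (SE 0.08, 95% interval -0.16 to 0.20). The interval of Inhba, whose product it binds, had a lower bound of 0.47, but a difference between the 2 genes was not tested. The Fst means of 6.93 in PGISp and 6.91 in control spines also lay close to background, at 6.73 to 6.80.

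Fstl1, a secreted glycoprotein related to follistatin and made by mesenchymal cells, was 8.20, 8.82, 8.36 and 8.36 in PGISp spines A, C, E and G, against 7.88, 8.04, 8.10 and 8.24 in control spines B, D, F and H. PGISp C, E and G lay above every control spine, and PGISp A lay just below control H. The means were 8.43 ± 0.27 in PGISp spines and 8.07 ± 0.15 in control spines (SD, n = 4 each), a log2 difference of 0.37 (SE 0.13, 95% interval 0.08 to 0.65) and a fold of 1.29. The log2 difference was 0.29 without controls B and F and 0.24 without PGISp C, the highest spine.

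**Figure D1:**
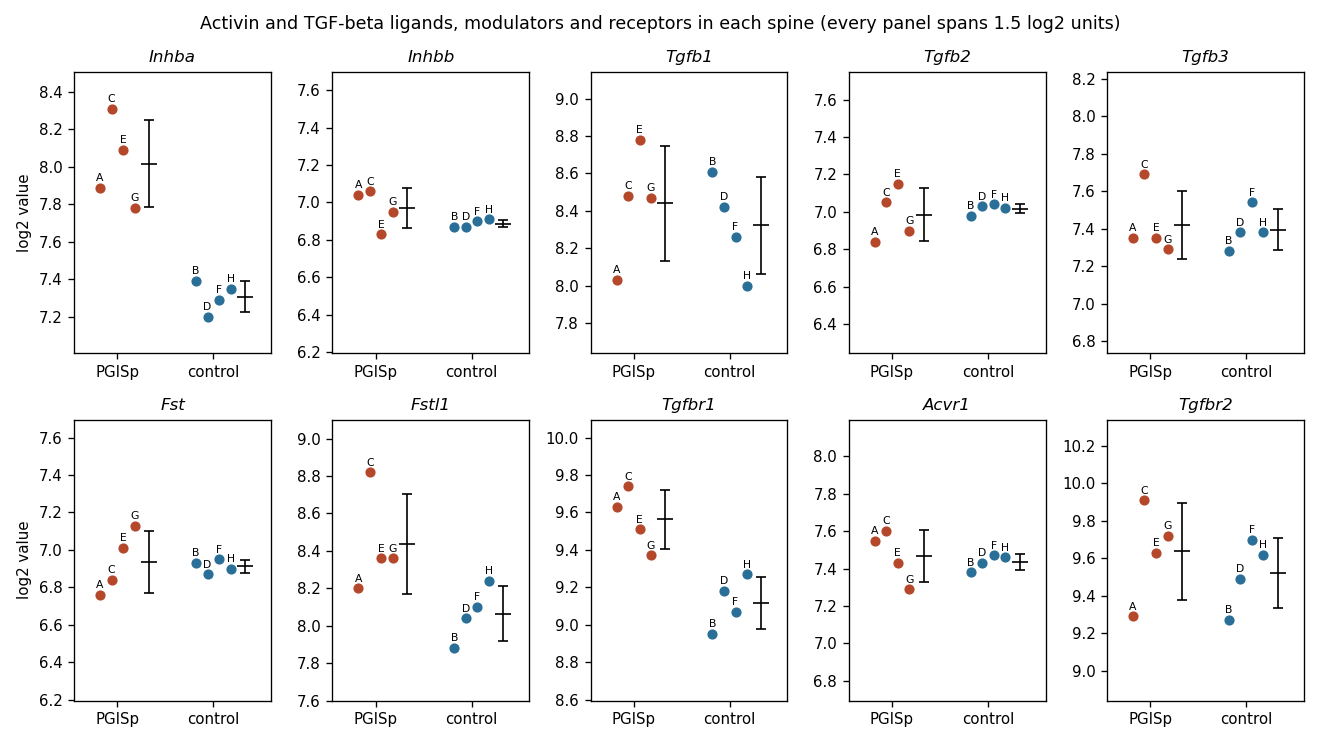
Log2 level of each of the 10 genes in every spine, PGISp spines on the left and control spines on the right of each panel, with letters naming the spines and bars giving mean and SD (n = 4 each). All panels span the same height. Inhba and Tgfbr1 are the panels in which the lowest PGISp spine, at 7.78 and 9.37, lies above the highest control spine, at 7.39 and 9.27.

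Tgfbr1, the type I receptor through which TGF-beta activates Smad2 and Smad3, was higher in PGISp spines by its brightest probe. That probe read 9.63, 9.74, 9.51 and 9.37 in PGISp spines A, C, E and G, against 8.95, 9.18, 9.07 and 9.27 in control spines B, D, F and H. The groups did not overlap, with a gap of 0.10 between PGISp G and control H. The means were 9.56 ± 0.16 in PGISp spines and 9.12 ± 0.14 in control spines (SD, n = 4 each), a log2 difference of 0.44 (SE 0.10, 95% interval 0.23 to 0.65) and a fold of 1.36 (1.17 to 1.57). The difference was 0.33 without controls B and F, the 2 lowest control spines, and 0.51 without PGISp G.

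The other 3 Tgfbr1 probes gave no such difference. Of these, 2 were at background on all 8 arrays, with means of 6.61 and 6.67 in PGISp spines and 6.64 and 6.64 in control spines. The remaining probe was above background on 7 of 8 arrays and averaged 6.87 in PGISp spines and 6.92 in control spines, a log2 difference of -0.05. The receptor's difference therefore rests on 1 probe of 4.

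Acvr1, a type I receptor for BMPs that also binds activin, was 7.55, 7.60, 7.43 and 7.29 in PGISp spines A, C, E and G, against 7.38, 7.43, 7.47 and 7.46 in control spines B, D, F and H. PGISp A and C lay above the control spines and PGISp G below them, with a log2 difference of 0.03 (SE 0.07, 95% interval -0.14 to 0.20). Tgfbr2, the type II receptor that binds TGF-beta and activates Tgfbr1, was 9.29, 9.91, 9.63 and 9.72 in PGISp spines A, C, E and G, against 9.27, 9.49, 9.70 and 9.62 in control spines B, D, F and H. Its groups overlapped, with a log2 difference of 0.12 (SE 0.13, 95% interval -0.18 to 0.42). A second Tgfbr2 probe was above background on 3 of 8 arrays and averaged 6.73 in PGISp spines and 6.71 in control spines. The receptor that binds the ligand and the one that it activates were thus read by bright probes whose intervals overlap, 0.23 to 0.65 for Tgfbr1 and -0.18 to 0.42 for Tgfbr2, and a difference between them was not tested.

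**Figure D2:**
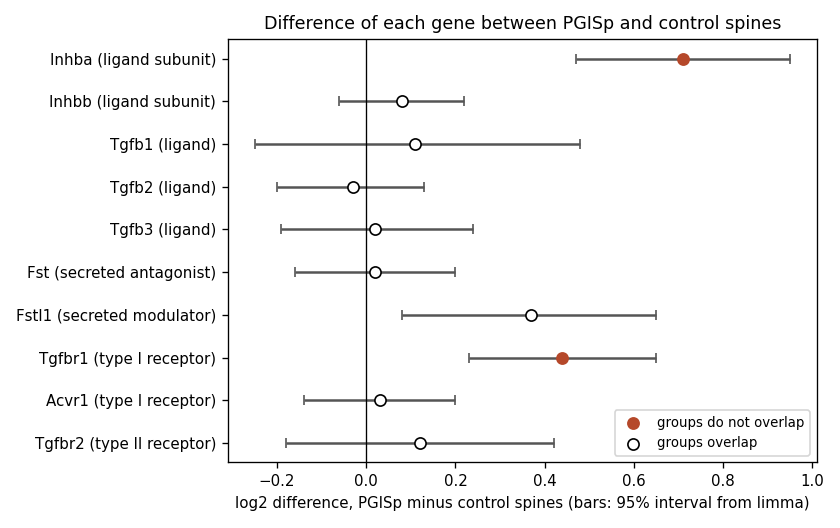
Log2 difference of each gene, PGISp minus control spines, read from its brightest probe, with the 95% interval from limma as bars; filled points mark genes whose groups do not overlap. The intervals run from 0.47 to 0.95 for Inhba, from 0.23 to 0.65 for Tgfbr1 and from 0.08 to 0.65 for Fstl1, which was not called. They are not adjusted for the number of genes and serve as descriptions, since the genes were chosen with these values known.

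Of the 10 genes, 9 had a difference above 0, and their median log2 difference was 0.10. Over all 9608 genes tested, 48.5% had a difference above 0, the median was -0.00, and the middle 90% of genes lay between -0.32 and 0.35. A gene is called here where limma gave a Benjamini-Hochberg adjusted p under 0.1 over all genes tested, and 10.8% of the genes tested were called, 6.26% higher and 4.56% lower in PGISp spines. Inhba and Tgfbr1 were called, 2 of the 10 genes, both higher. The same 2 genes had PGISp spines above all control spines, as did 7.77% of the genes tested. Since the genes were selected on this comparison, nothing is read from these counts. Without controls B and F, 1.7% of the genes tested were called, and of the set Inhba alone was. Of all genes, 1039 were called with the 8 arrays. Leaving out control F, control B or PGISp E gave 405, 619 and 630 calls in that order, and leaving out PGISp G gave 1564. With PGISp A left out, 3 of the set were called, with Fstl1 added to Inhba and Tgfbr1.

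The spines did not rank alike over the set. PGISp C was the highest PGISp spine for 7 of the 10 genes, all but Tgfb1, Tgfb2 and Fst. PGISp A was the lowest PGISp spine for 5 genes (Tgfb1, Tgfb2, Fst, Fstl1 and Tgfbr2) and PGISp G for 4 (Inhba, Tgfb3, Tgfbr1 and Acvr1). PGISp A was also the array with the fewest probes above background (11942), and PGISp G the one with the most (14114). A link between this and the order of the spines was not tested. Fst was lower in PGISp A and C than in E and G, and Acvr1 was higher in A and C than in E and G.

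The genes whose values over the 8 arrays were most like those of Inhba, out of 8893 genes with a symbol, were Cybc1 (Pearson r = 0.989), Fcgr2b (0.988), Bcl3 (0.982), Clta (0.980) and Mmp3 (0.980). These are values over 8 arrays that share the 2 groups, so genes that were higher in PGISp spines tend to score high. Their log2 differences were 0.42 for Cybc1, a chaperone of the phagocyte oxidase, 0.66 for the inhibitory Fc receptor Fcgr2b, 0.28 for the NF-kappa-B regulator Bcl3, 0.24 for clathrin light chain Clta and 2.40 for the metalloproteinase Mmp3. The genes most like Tgfb2, which had the lowest log2 difference of the 10, were Tmco6 (Pearson r = 0.982), H2-M10.1 (0.954), Glrb (0.947), Tmem229a (0.939) and Nme7 (0.925), with log2 differences between -0.04 and -0.01.

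The other genes of the pathway were counted from lists drawn up by role, but with earlier results of these data known. Those for Lox, Timp1, Col1a1 and Col3a1 were among them, so the counts are descriptions. Of 12 other ligand genes, 9 were on the array and 2, Gdf3 and Lefty1, were bright enough to test. Neither was called, with log2 differences of 0.06 (adjusted p = 0.661) and -0.07 (adjusted p = 0.566) in limma, and 0 of the 2 passed an unadjusted p under 0.05. The share of all genes tested that passed an unadjusted p under 0.05 was not counted. Counts at that level, here and below, therefore have no such share beside them, and nothing is read from them. Mstn (myostatin) and the inhibin alpha gene Inha were on the array and below the filter.

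Of 11 tested genes for latency, activation and secreted modulation, 3 rose, 0 fell and 8 did not pass the test, with a median log2 difference of 0.05, beside 6.26% higher and 4.56% lower over all genes tested. Nrros, which tethers latent TGF-beta on myeloid cells, was 8.94, 9.08, 8.84 and 8.89 in PGISp spines, against 8.73, 8.44, 8.42 and 8.28 in control spines. This is 1.38-fold (log2 difference 0.47, SE 0.10, adjusted p = 0.024 in limma), the groups did not overlap, and the adjusted p was 0.0539 without controls B and F. Dcn, which encodes the TGF-beta-binding proteoglycan decorin, averaged 12.89 ± 0.21 in PGISp spines and 12.46 ± 0.09 in control spines (SD, n = 4 each; 1.35-fold, adjusted p = 0.0384 in limma). Emilin1, a matrix protein that restrains TGF-beta processing, averaged 7.49 ± 0.19 in PGISp spines and 7.18 ± 0.12 in control spines (1.24-fold, adjusted p = 0.0934). Without controls B and F, the adjusted p was 0.198 for Dcn and 0.427 for Emilin1. The call of Dcn was also lost without control F alone (adjusted p = 0.123), and that of Emilin1 without any one of PGISp A, C and E and controls B, F and H (adjusted p = 0.13 to 0.247). With the mean of a gene's probes, Dcn had a log2 difference of 0.23 (adjusted p = 0.218), against 0.43 by its brightest probe. Without control F, 1 of the 11 genes was called. Ltbp4, a latent TGF-beta binding protein, and Furin, the protease that cleaves the precursor, had log2 differences of -0.36 (adjusted p = 0.112) and 0.31 (adjusted p = 0.133). Ltbp4 was called lower without control B (adjusted p = 0.0942), PGISp C (0.0835) or PGISp G (0.0612), and with the stricter filter, the mean of probes, an intensity trend or array weights (0.0823 to 0.0996). Furin was called higher without PGISp A (adjusted p = 0.0123), with array weights (0.0462) and with chip position as a covariate (0.0905).

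Of 9 tested genes for other receptors and co-receptors, 0 rose, 2 fell and 7 did not pass the test, with a median log2 difference of 0.02, again beside 6.26% higher and 4.56% lower over all genes tested. Acvr2b, a type II receptor for activins and myostatin, was 7.50, 7.59, 7.39 and 7.74 in PGISp spines, against 8.04, 7.77, 8.05 and 7.75 in control spines. Its log2 difference was -0.35 (SE 0.10, adjusted p = 0.0703 in limma), with no overlap but PGISp G and control H next to each other. Amhr2, the type II receptor of anti-Mullerian hormone, averaged 6.96 ± 0.09 in PGISp spines and 7.42 ± 0.24 in control spines (SD, n = 4 each), a log2 difference of -0.46 (adjusted p = 0.0397). Controls B and F were the highest control spines for both genes, and without them the log2 differences were -0.21 for Acvr2b (adjusted p = 0.475) and -0.28 for Amhr2 (adjusted p = 0.299). The call of Amhr2 was also lost without control F alone (adjusted p = 0.127), and that of Acvr2b without any one of PGISp A, C and E and controls B and F (adjusted p = 0.115 to 0.2). The activin type II receptor Acvr2a and the type I receptors Acvr1b and Acvrl1 were below the filter.

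None of the 14 tested Smads and Smad regulators was called by limma, and their median log2 difference was 0.04. At an unadjusted p under 0.05, 1 was higher and 0 were lower, a count without a share over all genes beside it. Smad2 and Smad3, which carry the activin and TGF-beta signal, had log2 differences of 0.04 (adjusted p = 0.701) and -0.15 (adjusted p = 0.288), and Smad4, their shared partner, 0.02 (adjusted p = 0.938). Skil, which encodes the Smad repressor SnoN, was nearest to the threshold at 8.30, 8.30, 8.01 and 7.98 in PGISp spines, against 7.91, 7.88, 7.77 and 7.92 in control spines (log2 difference 0.28, adjusted p = 0.1001). It was called without PGISp G (adjusted p = 0.0415).

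Genes that TGF-beta is known to induce in mesenchymal cells included several of the larger differences among the lists. Of 18 tested, 8 rose, 0 fell and 10 did not pass the test, with a median log2 difference of 0.43, against -0.00 over all genes, of which 6.26% were called higher. The 4 genes with the largest differences were those whose results were known beforehand, so these values are partly set by that knowledge. Of the other 14 genes, 4 rose, 0 fell and 10 did not pass the test, with a median log2 difference of 0.27. These genes, which include the collagen genes Col1a2 and Col5a1, were also listed with earlier results of these data known. Timp1, an inhibitor of metalloproteinases, was 9.56, 10.37, 9.20 and 8.51 in PGISp spines, against 7.62, 7.68, 7.61 and 7.53 in control spines, which is 3.48-fold (log2 difference 1.80, adjusted p = 0.0108 in limma). Lox, the enzyme that cross-links collagen, was 8.67, 9.59, 8.67 and 8.37 in PGISp spines, against 7.50, 7.63, 7.35 and 7.53 in control spines (2.50-fold, adjusted p = 0.00912). The collagen genes Col1a1 and Col3a1 were 2.51-fold (adjusted p = 0.0146) and 2.42-fold (adjusted p = 0.0136) higher by their brightest probes, and with the mean of its probes Col3a1 had a log2 difference of 0.745 (adjusted p = 0.0141), against 1.27 by the brightest. PGISp G was the lowest PGISp spine for Timp1, Lox and Col3a1, and PGISp C the highest for all 4 genes. The others that rose were Ccn2, Tgfbi, Col1a2 and Nox4, at 1.28-fold (Nox4) to 1.70-fold (Ccn2), and each of these 4 lost its call when any one of controls B, F and H was left out (adjusted p = 0.105 to 0.214). Calls were lost in other settings too. That of Col1a2 was lost without PGISp A (adjusted p = 0.169), C (0.161) or E (0.132), with array weights (0.102) and without a filter on dim probes (0.15). Tgfbi had a log2 difference of 0.57, and of 0.36 without PGISp C. Leaving out 1 of these 3 control spines gave 4 calls, leaving out PGISp A gave 5 and leaving out PGISp G gave 11. Without controls B and F, none of the 18 was called, although the log2 differences of Timp1 (1.81), Lox (1.24), Col1a1 (1.30) and Col3a1 (1.36) stayed of like size.

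**Figure D3:**
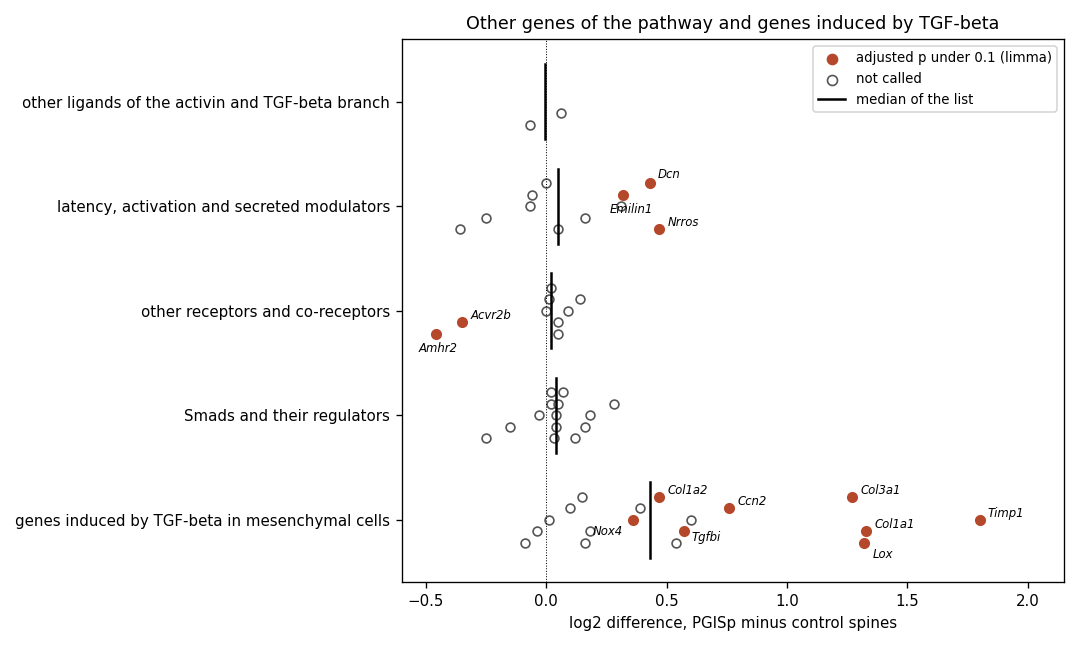
Log2 difference of each tested gene in 5 lists of the pathway, PGISp minus control spines, with filled points for genes called by limma at an adjusted p under 0.1 and a vertical bar for the list's median. The medians of the ligand, modulator, receptor and Smad lists lie between -0.00 and 0.05, and that of the genes induced by TGF-beta at 0.43. In that last list the results of Lox, Timp1, Col1a1 and Col3a1 were known beforehand, and the median of the other 14 genes was 0.27. Without controls B and F, 0 of its 18 genes were called.

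Marker genes of several cell types moved with the groups, and the lists are given as the mean deviation of their genes from the mean of the 8 arrays. Fibroblast markers, of which 4 of 11 were called higher, stood at -0.05 to 0.52 in PGISp spines and -0.22 to -0.17 in control spines. The called ones were the matrix genes Col1a2, Col3a1, Dcn and Lum. The groups overlapped for every uncalled gene of the list, with log2 differences from 0.01 (Dpt) and 0.03 (Thy1) to 0.31 (Pi16). Neutrophil markers, with 11 of 14 called higher, stood at 0.19 to 0.40 in PGISp spines and -0.40 to -0.23 in control spines. Monocyte and macrophage markers, with 3 of 10 higher, stood at 0.02 to 0.22 in PGISp spines and -0.17 to -0.10 in control spines. The called ones were Lyz2, Ms4a7 and Cd14, and the median log2 difference of the list was 0.14. Its uncalled genes ranged from -0.05 (Cd163) and -0.00 (Fcgr1) to 0.43 (Adgre1). Like Inhba and Tgfbr1, the mean deviations of these 3 lists did not overlap between the groups. Whether the fibroblast mean separates the groups without its 4 called genes was not tested. The part of the 3 lists in the differences of Inhba, Fstl1 and Tgfbr1 was not tested either. Col1a2, Col3a1 and Dcn are in both the fibroblast list and the pathway lists, and Col1a1 is also in the osteoblast list.

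Osteoblast markers, with 2 of 9 higher, stood at -0.03 to 0.49 in PGISp spines and -0.33 to -0.01 in control spines. Muscle markers, with 2 of 15 called lower, 8 lower at an unadjusted p under 0.05 and a median log2 difference of -0.39, stood at -0.61 to 0.24 in PGISp spines and -0.05 to 0.42 in control spines. Controls B (0.31) and F (0.42), with the Y-linked signal, were the highest spines, against -0.05 and 0.14 in controls D and H. Within the PGISp group, spine A had the lowest muscle level at -0.61 and spine G the highest at 0.24. Fst, a dim transcript, had its lowest and highest PGISp levels on the same spines. Adipocyte markers were likewise lowest in A (-0.30) and highest in G (0.10), and monocyte and macrophage markers were highest in A (0.22) and lowest in G (0.02). PGISp A was also the array with the highest background (6.80) and the fewest probes above it (11942). PGISp G had the lowest background (6.73) and the most probes above it (14114). A link of Fst to any of these lists, or to the background of the arrays, was not tested. Spine C had the highest Inhba, Fstl1 and Tgfbr1 levels of all spines, and the highest fibroblast level at 0.52. It was also the highest spine for osteoblast (0.49), neutrophil (0.40), chondrocyte (0.19) and endothelial (0.16) markers, so its high level was not particular to fibroblast markers. Platelet markers, whose cells carry much TGF-beta, had 0 of 8 called by limma and stood at -0.08 to 0.08 in PGISp spines and -0.13 to 0.17 in control spines, and 0 passed an unadjusted p under 0.05. Adipocyte markers had 0 of 5 called, although 5 were lower at an unadjusted p under 0.05, and stood at -0.30 to 0.10 in PGISp spines and 0.08 to 0.23 in control spines. Chondrocyte markers had 1 of 6 called, Cytl1, which was lower, and Col2a1 was higher at an unadjusted p = 0.0316 (limma, adjusted p = 0.17). Endothelial, erythroid and glial or neuronal markers had 0 of 7, 0 of 5 and 0 of 5 called, with 1 gene of each of these 3 lists past an unadjusted p under 0.05. The share of all genes past that level was not counted, so nothing is read from the unadjusted counts of any marker list. In limma an unadjusted p of 0.0494 (Pi16) stood at an adjusted p of 0.221.

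**Figure D4:**
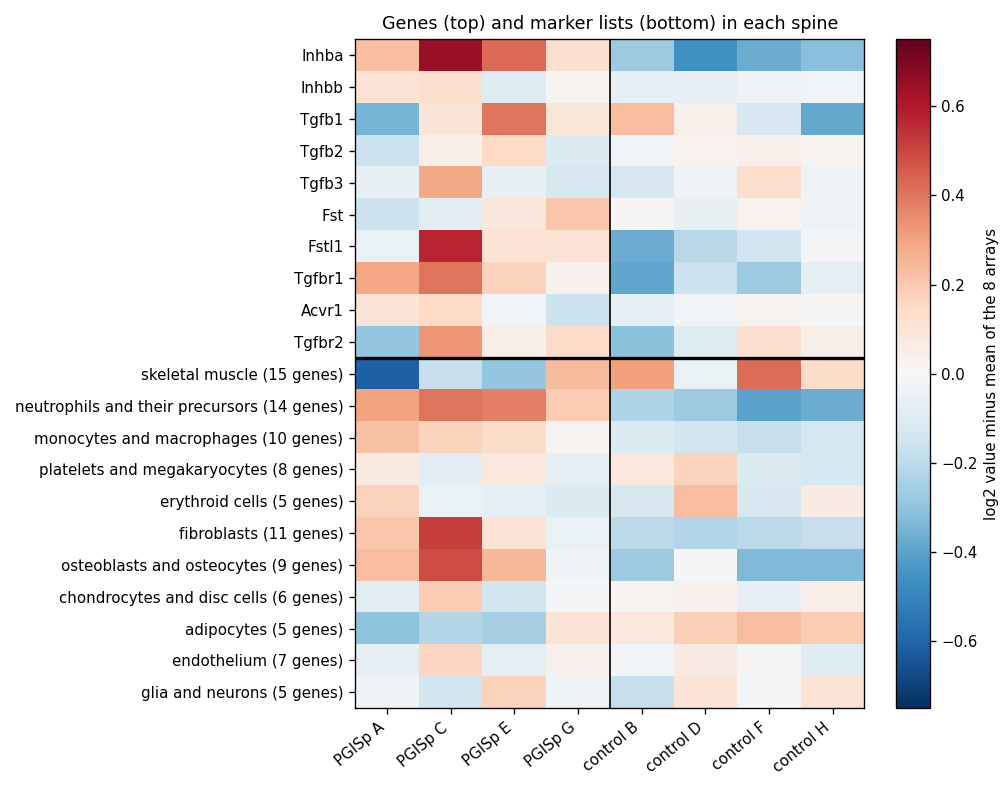
Log2 value minus the mean of the 8 arrays for each of the 10 genes (top) and for marker lists of cell types (bottom, mean over the tested genes), with PGISp spines left of control spines. PGISp C holds the highest Inhba, Fstl1 and Tgfbr1 values. It also holds the highest fibroblast (0.52), osteoblast (0.49), neutrophil (0.40), chondrocyte (0.19) and endothelial (0.16) values.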

How the data were processed

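Whole-spine RNA of 4 PGISp and 4 control mice was measured on Illumina MouseRef-8 arrays. The submitters' processing notes name BeadStudio. According to the methods, the authors applied a variance-stabilizing transformation and then robust spline normalization with lumi, and the deposited log2 values were used without further normalization. The sorted values of 2 arrays never differed by more than 0.005. A further table of 16 columns (8 signal, 8 detection) was not used, since its column names match no label. Of 25697 probes, 2 had no values, and 23976 carried 1 gene symbol, 0 several and 1719 none; 23960 symbols were brought up to date by gene identifier and 16 kept. Background on each array was the 95th percentile of 1305 probes for olfactory or vomeronasal receptors.

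Probes with a mean above the median of all log2 values (6.77) were kept (12492), and the brightest stood for its gene, giving 9608 genes, 8894 with a symbol. Groups were compared with limma (lmFit, eBayes), with Benjamini-Hochberg adjustment over all of them and calls at an adjusted p under 0.1. The p-values set each difference against a variance between mice that limma draws toward a value shared by all genes. The number of arrays limits the precision. Alternatives changed the filter, probe rule, variance model, weights, normalization, threshold and test, or left out arrays. The fit was tested on simulated data. Named genes were the 10 genes, up to 4 called genes per list by size, any gene needed by a count of 5 or fewer, and the 5 genes most like Inhba and Tgfb2; Skil, Ltbp4, Furin, Smad2, Smad3, Smad4, Mstn, Inha, Acvr2a, Acvr1b, Acvrl1, Ccn2, Tgfbi, Col1a2 and Nox4 and the marker genes were named in addition, after their values were seen. The 10 genes and the lists were chosen with earlier results of these data known. Python 3.11.15 was used with pandas 2.3.3, numpy 2.4.6 and matplotlib 3.10.9, and limma 3.58.1 ran in R 4.3.3.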

Additional observations from a re-analysis of the deposited data

Results flagged for a closer look

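Tgfb3 was 7.69 on PGISp C, and the nearest of the other PGISp spines stood at 7.35, with the lowest at 7.29. The gap divided by the range of the 4 spines was 0.853, above the 95% critical value of Dixon's test for 4 samples. It was 1 of 20 groups of 4 spines examined, and chance alone marks about 1 in 20. The cause was not tested.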

How the results depend on the processing

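Inhba was called in all 20 alternatives, with log2 differences of 0.61 to 0.79. The call of Tgfbr1 was lost with the mean of a gene's probes (log2 difference 0.20), in the methods' t-test and without controls B and F (0.33). Fstl1 was called with the stricter filter, an intensity trend, array weights or without PGISp A. The other 7 genes were called in no alternative run, and none of the 10 had a called difference that changed sign. Of the 10 genes, 1 was called with the mean of probes, 1 by the methods' t-test and 1 without controls B and F, against 2 in the analysis above, and 2 to 3 when 1 array was left out (3 without PGISp A).

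Over all genes, 411 were called by the methods' t-test, 577 at a threshold of 0.05 and 163 without controls B and F, against 1039. Leaving out 1 array gave 405 (without control F) to 1564 (without PGISp G) calls, with 619 without control B and 630 without PGISp E. Of the latency and modulator genes, 5 were called with a trend, 5 with array weights, 0 by the t-test and 1 without controls B and F, and 1 (without control F) to 4 when 1 array was left out. Of the other receptors, 1 was called without a filter, 1 with the stricter filter, 0 by the t-test, 1 at 0.05 and 0 without controls B and F, and 0 (without control F) to 2 when 1 array was left out. Of the Smads, 1 was called with the stricter filter, 1 with the mean of probes, 2 with every probe, 1 after quantile normalization, and 0 to 1 when 1 array was left out (1 without PGISp G). Of the genes induced by TGF-beta, 5 were called without a filter, 2 by the t-test, 5 at 0.05 and 0 without controls B and F, and 4 to 11 (without PGISp G) when 1 array was left out. Nrros, called in the other alternatives, had an adjusted p of 0.106 in the t-test. The causes were not tested. Fewer arrays enter the fit without controls B and F, and a multivariate permutation test was not run. No paired analysis was possible because replicate numbers are in accession order and pair no spines.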
